A study of Mus musculus with 2 samples.

Results

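Desmosomes are the adhesive buttons that hold neighbouring keratinocytes together, and the 10 genes described here encode their parts. Dsg2 and Dsg3 are desmogleins and Dsc1, Dsc2 and Dsc3 are desmocollins, the 2 cadherin families whose outer domains bind those of the next cell. Jup (plakoglobin) and the plakophilins Pkp1, Pkp2 and Pkp3 are armadillo proteins of the inner plaque, where desmoplakin links them to the keratin filaments. Perp is a membrane protein of desmosomes and a target of p63, the master regulator of stratified epithelia. In the epidermis the cadherin pairs are known to be exchanged as cells leave the basal layer, with Dsg3 and Dsc3 prominent below and Dsg1 and Dsc1 above.

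The genes were taken by name from the 19059 genes of the probe set, and all 10 were measured in both libraries. Single-cell RNA was read from dorsal skin of 1 wildtype C57BL/6J mouse and 1 Eppk1-/- mouse, which lacks epiplakin, a keratin-binding plakin protein, in all tissues and had been backcrossed to C57BL/6J. Neither skin was treated, and the sources used here give no age or sex. With 1 library per genotype there is no replicate and no test. Values are given for the wildtype library first and the Eppk1-/- library second, intervals are 95% and cover counting error only, and differences between genotypes are differences between these libraries.

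The libraries held 77638793 and 65118304 unique molecular identifiers (UMIs, 1 per captured probe molecule) in 9179 and 8811 cells, of which 8875 and 8617 were kept. Keratinocytes numbered 5458 and 4010, with median depths of 4511 and 4554 UMIs, and 1211 droplet barcodes occurred in both libraries. Classes are named "-like" after marker genes, from clusters built without the 10 genes, and levels are counts of UMIs summed over a class, per 1000000 UMIs of that class (CPM). Eppk1 stood at 2982 and 788 CPM in keratinocytes and was lower in the Eppk1-/- library in every epidermal and sebaceous class compared except the latest differentiated cells (101 and 528 CPM). Among the lower classes the drop was smallest in granular-like cells, at 6834 and 3116 CPM, and where the probes lie relative to the deleted part is not given in the sources used here. The class with companion layer markers, 61 and 12 cells, expressed Krt75 (1813 and 1524 CPM) and Krt6a, while the inner sheath markers Krt25 and Krt27 were at 0, so that only its companion markers were borne out. Probes differ in efficiency, so each gene is compared between cell groups, and levels of different genes are not ranked against each other. Shares of a gene in the UMIs of its family carry the same limit and are likewise read between cell groups.

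The 5 cadherin genes are neighbours on 1 chromosome, whereas the genes of the plaque and Perp are scattered over the mouse genome (GRCm38): Pkp1 at chr1:135871395-135919207 on the minus strand, Pkp3 at chr7:141078218-141090510 on the plus strand, Perp at chr10:18845020-18857073 on the plus strand, Jup at chr11:100368958-100397763 on the minus strand and Pkp2 at chr16:16213318-16272712 on the plus strand. The RefSeq table of promoters (GRCm38.p6) matched 1 of the 10 genes, Jup. Its 250 bases before the transcription start are shown beside those of Dsp (desmoplakin), which like Jup stood higher in spinous-like and granular-like than in basal-like cells, and of Cdsn (corneodesmosin), which in the interfollicular epidermis was high only in granular-like and latest cells. Capitals mark the letters GGGCGG or their reverse complement, the core of the GC box. Positions are chr11:100397791-100398040 on the minus strand for Jup, chr13:38151044-38151293 on the plus strand for Dsp, and chr17:35551878-35552127 on the plus strand for Cdsn, for which the table lists 2 starts and the one further downstream was used.
Jup: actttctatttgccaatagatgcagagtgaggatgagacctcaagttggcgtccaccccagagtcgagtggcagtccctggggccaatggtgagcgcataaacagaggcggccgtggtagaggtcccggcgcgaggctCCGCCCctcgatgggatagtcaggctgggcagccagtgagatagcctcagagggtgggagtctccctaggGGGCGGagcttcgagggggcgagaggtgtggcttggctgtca
Dsp: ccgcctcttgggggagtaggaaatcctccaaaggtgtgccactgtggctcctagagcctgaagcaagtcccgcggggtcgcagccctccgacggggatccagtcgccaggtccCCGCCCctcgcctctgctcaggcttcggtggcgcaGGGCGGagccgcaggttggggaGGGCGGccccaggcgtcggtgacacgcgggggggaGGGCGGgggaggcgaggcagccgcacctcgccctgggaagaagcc
Cdsn: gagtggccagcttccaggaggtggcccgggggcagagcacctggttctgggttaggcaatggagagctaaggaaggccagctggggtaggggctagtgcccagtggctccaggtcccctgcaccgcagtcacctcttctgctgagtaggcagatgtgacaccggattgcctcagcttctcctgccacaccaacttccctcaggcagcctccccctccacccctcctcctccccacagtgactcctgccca
The Jup window held 2 GC boxes and a GC content of 62%, the Dsp window held 4 with a GC content of 72.4%, and the Cdsn window held 0 with 64%. Of 32851 mouse windows of the same length, 32.7% held a GC box. An AP-1 motif, TGANTCA, was in 6.75% of windows, and the TATA box, TATAAA, was in 12.4%. A grainyhead motif, AACNNGTT, was in 3.64%. None of these, searched on both strands, was in the windows shown.

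Desmogleins fell or rose steeply along the epidermis. Dsg3, the main basal desmoglein and the pemphigus vulgaris antigen, stood at 468 and 445 CPM in basal-like cells, 168 and 140 in spinous-like cells, and 20.2 and 12.9 in granular-like cells. Against basal-like cells that was lower by 2.78-fold and 3.17-fold in the spinous and by 23.2-fold and 34.3-fold in the granular class. The granular level was no higher than that of fibroblast-like cells, 20.9 and 13.1 CPM, so the granular folds rest on a level near background. After thinning, 4.48% [2.67, 6.98] and 3.96% [1.83, 7.39] of granular-like cells had a Dsg3 UMI (19% and 11.4% unthinned), against 2.41% [1.73, 3.25] and 1.31% [0.906, 1.82] of fibroblast-like cells (6.71% and 3.46% unthinned). In the follicle Dsg3 stayed high: 612 and 576 CPM in outer sheath-like, 689 and 626 in bulge-like and 898 and 813 in companion-like cells, the highest class in both libraries, although in the Eppk1-/- library its interval overlaps that of bulge-like cells. Upper follicle-like cells, at 80.7 and 51.4 CPM, lay between spinous and granular levels.

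Dsg2, a desmoglein widespread in simple epithelia and heart, was the most basal of the members. Its level was 172 [164, 180] and 192 [182, 202] CPM in basal-like cells and 145 and 165 in proliferating cells, whose intervals overlap the basal ones in both libraries. It was 28.4 and 25.2 CPM in spinous-like and 3.7 and 3.22 in granular-like cells, log2 differences from basal of -2.60 and -2.92, then -5.52 and -5.86. Bulge-like cells (64.2 and 67.8 CPM) were not separable from outer sheath-like cells (62.7 and 80.2). With each cell thinned to 2000 UMIs, 25.6% and 28.5% of basal-like cells had a Dsg2 UMI but 0.746% and 0% of granular-like cells, against 0.528% and 0.576% of fibroblast-like cells, so granular detection was near or below the fibroblast background. The 0 of 227 Eppk1-/- granular-like cells has a 95% interval that reaches up to 1.61%.

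Dsg1a and Dsg1b, the superficial desmogleins, are near-identical copies whose UMIs may be split between them and are uncertain singly. Dsg1a stood at 369 and 432 CPM in basal-like, 1681 and 1972 in spinous-like and 3429 and 3253 in granular-like cells. The Dsg1a to Dsg3 ratio was thus 12.6-fold and 14.5-fold higher in spinous-like than basal-like cells and 215-fold and 258-fold higher in granular-like cells, the latter against that near-background Dsg3. Of the UMIs of Dsg1a, Dsg1b, Dsg2 and Dsg3 together, Dsg3 made 44.5% and 40% in basal-like, 7.51% and 5.48% in spinous-like, 0.508% and 0.343% in granular-like, and 75.7% and 64% in bulge-like cells. Both genes were found together in single basal-like cells: after thinning, 26.3% and 29.1% had UMIs of Dsg1a and Dsg3, 20.1% and 21.4% of Dsg1a alone, and 28.1% and 23.1% of Dsg3 alone.

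**Figure D1:**
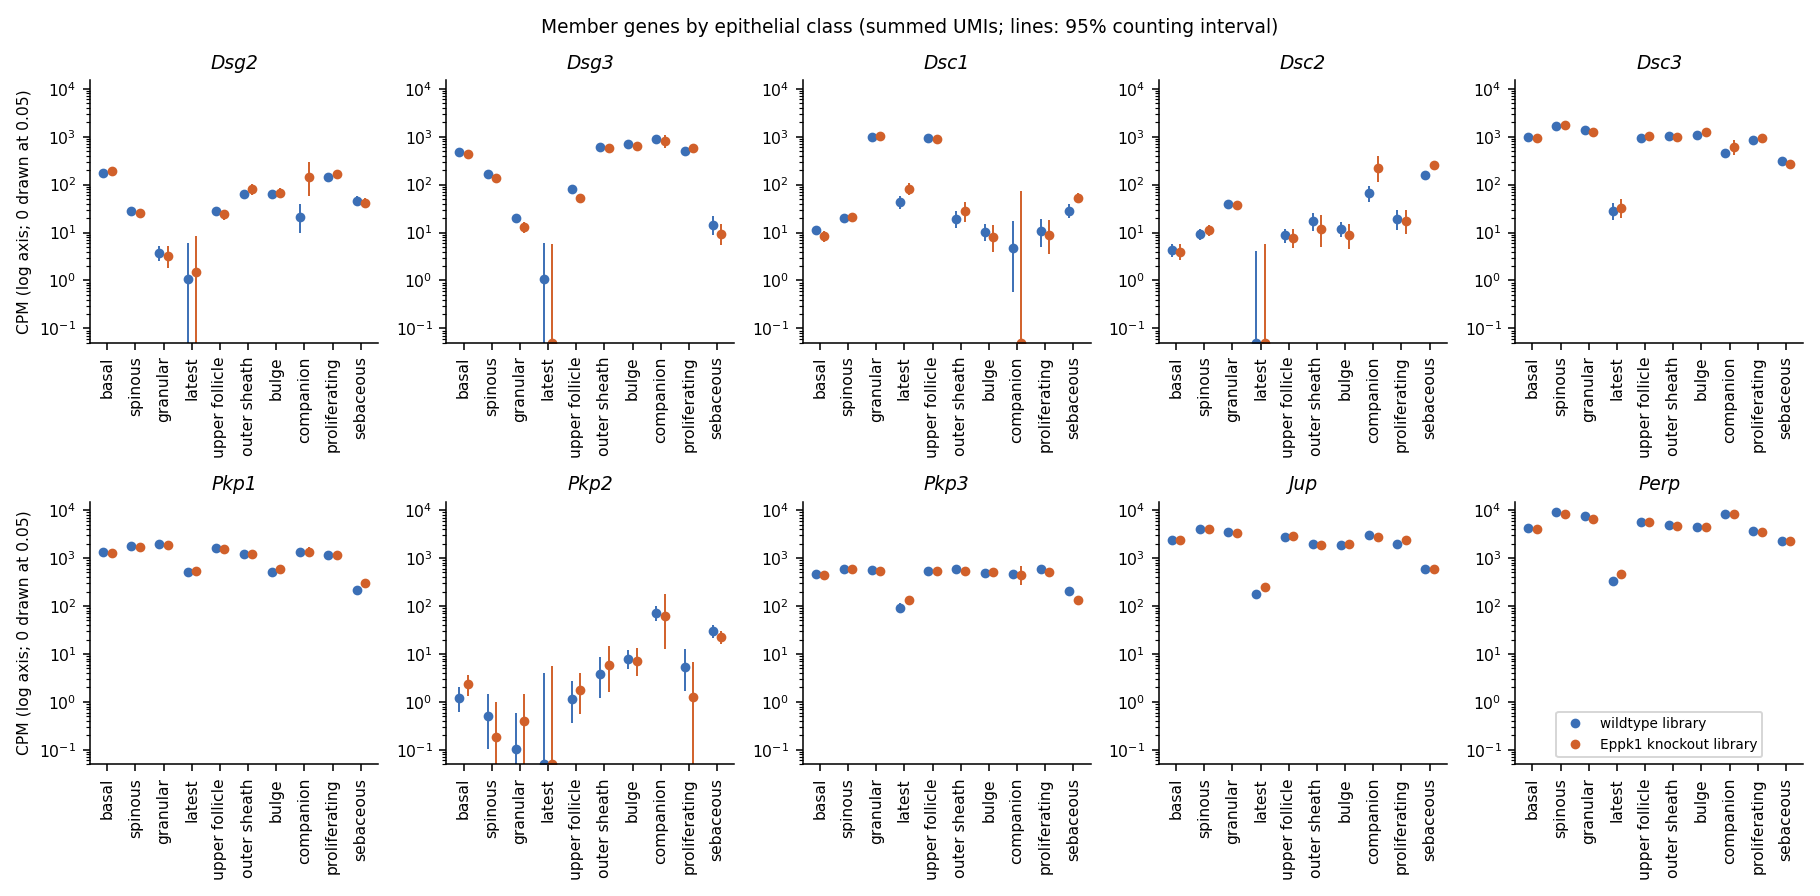
Levels of the 10 genes in 10 epithelial classes, in CPM on a log axis with 0 drawn at the foot; blue points are the wildtype library, orange points the Eppk1-/- library, and lines are 95% counting intervals. Dsg2 and Dsg3 run down from basal-like to latest cells, Dsc1 stands high in granular-like (969 and 1009 CPM) and upper follicle-like cells (943 and 910), and Dsc2 is highest in sebaceous-like cells (159 and 258 CPM).

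The desmocollins differed in when they changed. Dsc3, the desmocollin of the lower layers, stood at 967 and 956 CPM in basal-like and 1664 [1631, 1697] and 1729 [1695, 1764] in spinous-like cells, its highest class, and was 1389 and 1228 in granular-like cells. Dsc1, the superficial desmocollin, stood at 11.1 [9.1, 13.3] and 8.43 [6.46, 10.8] CPM in basal-like, 19.7 and 20.7 in spinous-like, and 969 [950, 989] and 1009 [981, 1037] in granular-like cells. The granular level was 87.2-fold and 119-fold the basal one, log2 6.45 [6.18, 6.74] and 6.89 [6.54, 7.29]. Basal Dsc1 was near background: after thinning, 2.25% [1.64, 2.99] and 1.78% [1.18, 2.58] of basal-like cells had a UMI (4.2% and 3.1% unthinned), against 2.06% [1.44, 2.85] and 0.73% [0.44, 1.14] of fibroblast-like cells. The wildtype intervals overlap, and median depths before thinning were 4106 and 3866 UMIs in basal-like and 6982 and 6262 in fibroblast-like cells.

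With these class borders the desmoglein and desmocollin ratios moved at different steps. From basal-like to spinous-like cells the Dsc1 to Dsc3 ratio moved by log2 0.05 [-0.33, 0.43] and 0.44 [-0.01, 0.88], against 3.66 and 3.85 for Dsg1a to Dsg3. From spinous-like to granular-like cells the Dsc1 to Dsg1a ratio was higher by 24-fold and 29.4-fold. Dsc1 made 1.13% and 0.87% of desmocollin UMIs in basal-like, 1.16% and 1.17% in spinous-like and 40.4% and 44.4% in granular-like cells. Over basal-like cells the granular Dsc1 to Dsc3 ratio was 60.7-fold and 92.5-fold higher. The step at which Dsc1 appeared depended on the class border, since at a finer clustering, where 250 and 143 of the granular-like cells fell in a spinous-like cluster, the spinous to basal change of that ratio was log2 4.36 and 4.31.

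Single granular-like cells carried both isoforms. Of 402 and 227 such cells thinned to 2000 UMIs, 46.5% and 39.6% had UMIs of Dsc1 and Dsc3, 23.4% and 23.8% of Dsc1 alone, and 26.9% and 30.8% of Dsc3 alone. Were the genes detected independently, 51.3% and 44.7% would have had both, which is more than was seen. In spinous-like cells 92% and 92.7% had Dsc3 without Dsc1.

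**Figure D2:**
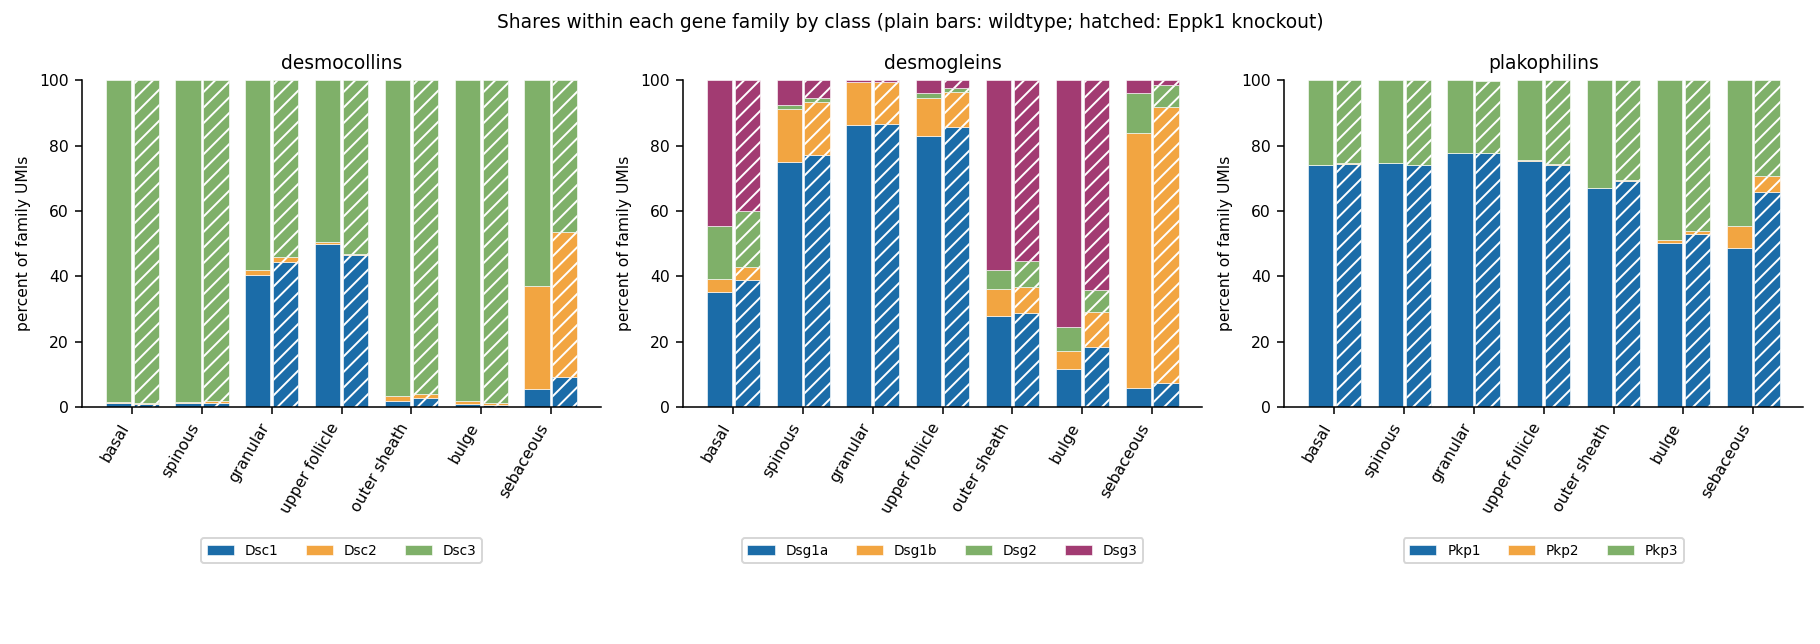
Share of each gene in the UMIs of its family, in percent, for 7 epithelial classes; plain bars are the wildtype and hatched bars the Eppk1-/- library. Dsc1 goes from 1.16% and 1.17% of desmocollin UMIs in spinous-like cells to 40.4% and 44.4% in granular-like cells, whereas Dsg1a already makes 75% and 77% of desmogleins in spinous-like cells, and Pkp1 falls to 50.2% and 53.1% of plakophilins in bulge-like cells.

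A finer clustering, examined after the class values were known, divided the granular-like cells in 2. The first group, 250 and 143 cells, was low in loricrin (Lor at 189 and 55.5 CPM), and the second, 146 and 84 cells, was high in it (36554 and 39525 CPM), loricrin being the main protein of the cornified envelope. Dsc1 was 740 and 731 CPM in the first and 1506 and 1528 in the second, while Dsc3 was 1806 and 1722 and then 465 and 313. Dsc1 therefore made 28.5% and 29.2% of desmocollin UMIs where loricrin was low and 75.9% and 82.5% where it was high.

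Jup, Perp, the plakophilins Pkp1 and Pkp3, and Dsc2 were lower in the second group, as Dsc3 was. Dsc2 stood at 52.5 and 52.1, then 12.9 and 10.4 CPM, Pkp1 at 2307 and 2252, then 1234 and 1106, Jup at 3924 and 3849, then 2648 and 2514, and Perp at 8193 and 7671, then 5599 and 4604. Dsg3 was not lower, at 18 and 7.75, then 21.4 and 22.5 CPM. Cdsn, which is secreted onto the desmosomes that become corneodesmosomes, went up, from 1277 and 1130 to 4535 and 5841 CPM. The loricrin-high group also held more RNA of antigen-presenting cells: Cd207, the Langerhans marker, was 0.781 and 0 CPM in the first group and 92.5 and 96.2 in the second, and Cd74 was 28.7 and 33.5, then 402 and 742. Without the 25 and 17 granular-like cells richest in such markers the granular Dsc1 difference from basal was log2 6.47 and 6.91.

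**Figure D3:**
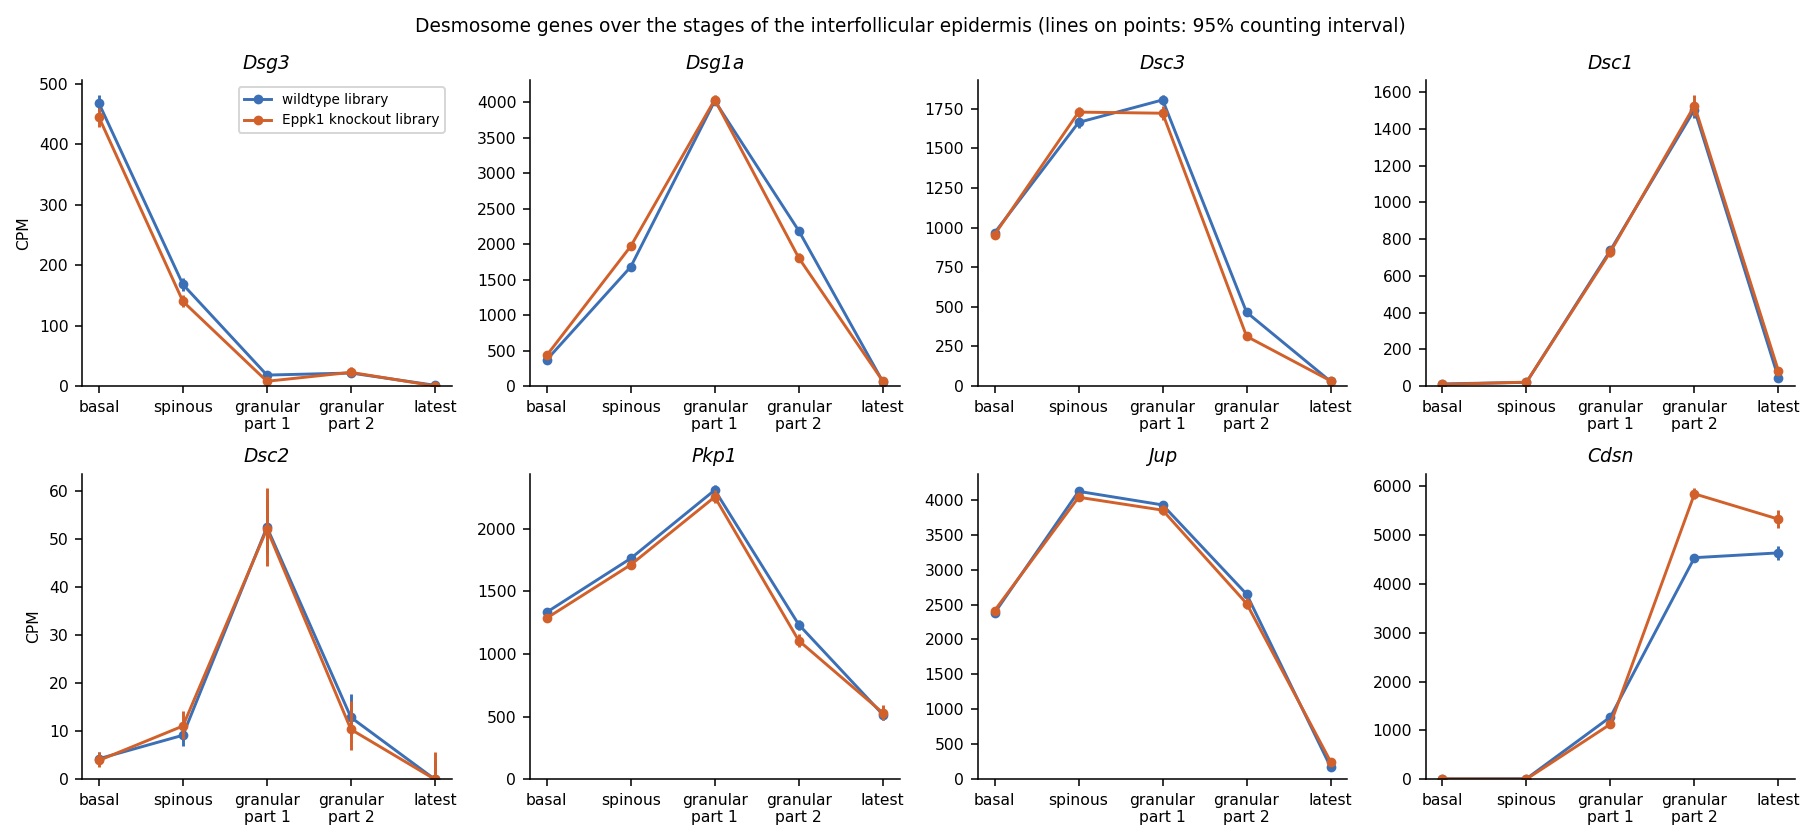
Levels in CPM (linear axes starting at 0) of 8 desmosome genes over basal-like, spinous-like, loricrin-low granular (part 1), loricrin-high granular (part 2) and latest cells; blue is the wildtype and orange the Eppk1-/- library, with 95% counting intervals. Dsg1a peaks in part 1 at 4023 and 4040 CPM, Dsc1 peaks in part 2 at 1506 and 1528, and Cdsn stands at 4633 and 5323 in the latest cells.

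In the follicle opening the same pair was seen. Upper follicle-like cells held Dsc1 at 943 and 910 CPM and Dsc3 at 936 and 1038. Against spinous-like cells Dsc1 was higher by log2 5.57 and 5.45. The fine clusters inside the class differed: in 342 and 224 cells Dsc1 made 44.3% and 38.8% of desmocollin UMIs, and in 50 and 38 cells with Lor at 16709 and 15624 CPM it made 90.3% and 89.7%. The fine clustering placed these 50 and 38 cells in the same granular-like cluster as the loricrin-high granular cells. A further 165 and 130 cells held Dsc1 at 758 and 469 CPM. Inner sheath RNA in the class came mainly from 1 cell: 2436 of its 2473 Eppk1-/- UMIs of Tchh, an inner sheath and medulla gene, were in it, and the wildtype cells held 41.

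Dsc2, the desmocollin found in most desmosome-bearing tissues, was low in the interfollicular epidermis. It stood at 4.29 and 3.94 CPM in basal-like, 9.18 and 11.1 in spinous-like and 39.8 and 37.4 in granular-like cells, a granular to basal difference of log2 3.20 and 3.23. Over the alternative settings that difference went down to 1.30 and 1.14. Companion-like cells had 66 and 224 CPM, and sebaceous-like cells had the most, 159 [138, 181] and 258 [235, 282]. The intervals of companion-like and sebaceous-like cells overlap in the Eppk1-/- library.

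Of the plaque genes, Jup, Pkp1 and Pkp3 stayed within log2 1 of basal-like cells in the spinous and granular classes, as the cadherin Dsc3 did. At the finer clustering the loricrin-low cells were outside the granular-like class and 50 and 38 upper follicle-like cells were inside it. Dsc3 was then called lower in granular-like than in basal-like cells. Jup, which binds both desmogleins and desmocollins, stood at 2379 and 2413 CPM in basal-like, 4118 and 4034 in spinous-like and 3527 and 3381 in granular-like cells. Pkp1, the plakophilin of suprabasal desmosomes whose loss causes skin fragility, stood at 1333 and 1286, 1762 and 1711, and 1960 and 1849 CPM. Pkp3, found in nearly all epithelial desmosomes, stood at 467 and 441, 597 and 598, and 563 and 529 CPM. In granular-like cells the log2 differences from basal-like cells were 0.57 and 0.49 for Jup, 0.56 and 0.52 for Pkp1 and 0.27 and 0.26 for Pkp3, beside 0.52 and 0.36 for Dsc3.

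Pkp2, the plakophilin of heart and simple epithelia, was low in interfollicular cells and higher in parts of the follicle and in the gland. Its level was 70.7 [47.7, 101] and 61 [12.6, 178] CPM in companion-like, 30.4 and 22.7 in sebaceous-like and 7.83 and 7.29 in bulge-like cells, against 1.2 and 2.31 in basal-like and 0.106 and 0.402 in granular-like cells. After thinning, 13% and 10% of companion-like cells had a UMI (7 of 54 and 1 of 10 cells), compared with 0.117% and 0.0384% of fibroblast-like cells. Within the bulge-like class its UMIs came mostly from 1 fine cluster, of 243 and 149 cells, which expressed Fgf18 at 857 and 1034 CPM: Pkp2 was 19.9 and 18.9 CPM there and 1.8 and 0 in the larger fine cluster of 427 and 211 cells. Perp, Jup and Dsg3 were also higher in that cluster, Perp at 6422 and 6034 against 3434 and 3460 CPM, whereas Dsc3 was lower, at 953 and 954 against 1150 and 1358.

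Perp stood at 4297 and 3975 CPM in basal-like, 9015 [8938, 9092] and 8389 [8313, 8466] in spinous-like and 7380 and 6599 in granular-like cells. The spinous difference was log2 1.07 and 1.08. Among the 10 epithelial classes Perp and Jup were both highest in spinous-like and lowest in latest cells, although the Eppk1-/- interval of Perp in companion-like cells overlaps the spinous one. Their log levels over 16 cell classes in 2 libraries had a Pearson r of 0.96, a description of 32 points that share libraries and depth. Dsc3 followed both, with r = 0.95 to Jup and 0.95 to Perp, while Dsc1 and Dsg3 ran against each other at -0.45.

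Counted by size, members moved in both directions from basal-like cells. A gene was counted where the 2 classes together held at least 50 of its UMIs in each library and called where its difference reached log2 1 the same way in both. From basal-like to spinous-like cells 2 of 9 counted members were called higher (Dsc2 and Perp) and 2 lower (Dsg2 and Dsg3), where 3.81% of all genes counted were higher and 10.0% lower. The Dsc2 difference was 0.80 and 0.88 as a mean over cells and that of Perp 0.90 and 0.95 without integration, both short of the size. The members' median was log2 0.78 and 0.74, beside -0.07 and -0.07 over all genes. From basal-like to granular-like cells 2 of 9 were higher (Dsc1 and Dsc2) and 2 lower (Dsg2 and Dsg3), against 14.1% and 25.9% of all genes, with medians of 0.56 and 0.49 beside -0.34 and -0.38. Granular-like and latest cells spend much of their UMIs on few genes, and scaling by trimmed means moved the all-gene granular median to 0.06 and 0.02, with which Perp also passed as higher.

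The 9 other desmosome genes had a larger median difference towards the surface. Of 7 counted, 3 were higher in spinous-like cells (Dsg1a, Dsg1b and Evpl) and 5 higher and 1 lower in granular-like cells, with medians of log2 1.72 and 1.68 there. Cdsn rose most, by log2 7.61 and 8.26 from 11.6 and 8.97 to 2271 and 2773 CPM, followed by Dsg1b at 3.64 and 3.47, and Dsp stood at 2897 and 3209, then 8346 and 8454 CPM. Pkp4, a plakophilin relative also found at adherens junctions, fell by 2.68 and 2.78 on the log2 scale. Of the 10 adherens junction genes, the cadherin-catenin contacts that sit beside desmosomes, 1 was higher and 2 lower in granular-like cells, with medians of -0.28 and -0.40. Nectin4 rose from 17 and 15.8 to 553 and 473 CPM, Cdh3 (P-cadherin) went from 578 and 610 to 22.5 and 18.1, and Cdh1 (E-cadherin) from 2383 and 2378 to 1468 and 1459, which was not called.

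In the latest differentiated cells, 50 and 35 cells with Lce transcripts, desmosome RNA was low. All 8 counted members were lower than in granular-like cells, where 77.9% of all genes were lower and 6.34% higher. Dsc3 fell most among those with UMIs left, from 1389 and 1228 to 28.4 and 32.2 CPM, Jup stood at 176 and 253, Perp at 325 and 460, and Dsc1 at 42.6 and 81.3. Dsc2 had 0 UMIs in both libraries, which allows up to 3.27 and 4.6 CPM. Pkp1 stood at 517 and 531 CPM, log2 -1.92 and -1.80 beside an all-gene median of -2.78 and -2.66, and under trimmed-mean scaling its difference was 0.15 and 0.02 and neither Pkp1 nor Pkp3 was called. With no upper limit on UMIs or genes per cell the Dsc1 difference was -0.17 and -0.44 and that of Dsg3 -2.54 and -0.63, and neither was called. Cdsn alone of the other desmosome genes was higher, at 4633 and 5323 CPM, log2 1.03 and 0.94 and short of the size in 1 library.

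Between upper follicle-like and spinous-like cells, 1 of 9 members was higher (Dsc1) and 1 lower (Dsg3, log2 -1.06 and -1.44), against 11.4% and 4.82% of all genes. Both differences depended on where the class borders were drawn. At the finer clustering the loricrin-low granular cells counted as spinous-like. Of the upper follicle-like cells, 165 and 130 were left unnamed there and 50 and 38 counted as granular-like. The Dsc1 difference was then 1.01 and 1.51 and that of Dsg3 0.36 and -0.29. Without integration, where no cluster was named granular-like, the Dsc1 difference was 0.63 and 0.97 and that of Dsg3 0.04 and -0.81.

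Bulge-like cells, which hold the follicle stem cells, differed from basal-like cells chiefly in Dsg2 and Pkp1 among the counted members. Pkp1 stood at 502 [474, 530] and 588 [548, 630] CPM against 1333 and 1286, a difference of log2 -1.41 and -1.13, while Pkp3 differed by 0.07 and 0.22. Pkp1 thus made 50.2% and 53.1% of plakophilin UMIs in bulge-like cells and 74% and 74.4% in basal-like cells. Dsg3 was higher by 0.56 and 0.49, short of the size. In all, 0 of 8 counted members were higher and 2 lower, where 21.2% and 8.29% of all genes were. Dsc2 and Pkp2 had too few UMIs to be counted and stood higher in bulge-like cells. Dsc2 was 11.7 and 8.75 CPM against 4.29 and 3.94, and Pkp2 7.83 and 7.29 against 1.2 and 2.31.

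The other lists were also lower in part. Among the other desmosome genes 3 of 7 were lower: Dsg1a at log2 -1.82 and -1.26, Pkp4 and Evpl, the last at -1.12 and -1.28. Of the adherens genes 2 of 10 were lower and 1 higher. Cdh1 stood at 765 and 831 CPM, log2 -1.64 and -1.52 against basal-like cells, and Nectin4 was higher by 2.24 and 2.74.

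Basal-like cells were not uniform either. The fine clustering gave 5 groups, and the pair at the ends of the Dsg2 range in both libraries, picked after their values were seen, held 668 and 503 cells at the high end and 583 and 464 cells at the low end. Dsg2 stood at 247 and 270 CPM in the first and 117 and 97.9 in the second, Dsg3 at 594 and 589 against 326 and 282, Pkp1 at 1856 and 1698 against 986 and 1046, and Jup at 2811 and 2842 against 1683 and 1754. Since Dsg2 chose the pair, its difference is fixed by the choice. Among the genes that led the low-end group over the other basal-like cells were Sox9 and Defb6, markers used here for bulge-like and upper follicle-like cells. Pkp3 stood at 452 and 438 against 488 and 410 CPM, Dsc3 at 940 and 999 against 908 and 924, and Dsc1 at 7.44 and 6.11 against 19.8 and 15.2.

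Sebaceous-like cells, 147 and 130 cells of the lipid-secreting gland, differed from basal-like keratinocytes in most members. Of 10 counted members 3 were higher, Dsc2 by log2 5.20 and 6.01, Pkp2 by 4.63 and 3.27 and Dsc1 by 1.37 and 2.67, and 6 were lower, against 21.3% and 22.5% of all genes. Dsc1 stood at 28.3 and 53.8 CPM, against a basal level near background. Macrophage-like cells held Dsc1 at 23.8 and 19.9 CPM, and Langerhans-like and dendritic-like cells at 50.5 and 9.53. As a mean over cells neither Dsc1 nor Pkp3 was called. Dsg3 fell most, to 14.5 and 9.43 CPM, and Jup stood at 595 and 605, Pkp1 at 220 and 302, Pkp3 at 201 and 135 and Dsc3 at 318 and 272 CPM. Perp stood at 2245 and 2248 CPM, log2 -0.94 and -0.82, short of the size. Dsc2 made 31.4% and 44.2% of desmocollin UMIs, and Dsg1b 78.2% and 84.4% of desmoglein UMIs.

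The other lists fell in the gland as well. Of the other desmosome genes 2 of 7 were higher, Dsg1b (log2 2.83 and 3.55) and Cdsn (4.51 and 5.48), and 5 lower, among them Dsg1a at -4.06 and -3.28 and Evpl at -3.92 and -4.07. Dsp, the linker to keratin, stood at 838 and 830 CPM. Of the adherens genes 7 of 10 were lower, with Cdh3 at -4.66 and -5.32 and Cdh1 at -2.28 and -2.78, and 1 was higher, Nectin4 at 2.13 and 2.24.

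Dsc2 in the gland came from the deeply sequenced cells. In the 99 and 54 sebaceous-like cells under 10000 UMIs it was 10.6 and 12.5 CPM, and in the 48 and 76 cells at or over that depth 236 and 295. Those deep cells also held more Scd1, a lipid synthesis enzyme of mature sebocytes (32602 and 29681 against 7395 and 6346 CPM). Dsg1b was also higher in the deep cells, 419 and 589 against 59.4 and 25.1 CPM, while Pkp3 stood at 316 and 259, then 141 and 116. Dsc3 was 307 and 384 CPM in the shallow and 324 and 255 in the deep cells, so the Dsc2 difference was not shared by Dsc3.

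**Figure D4:**
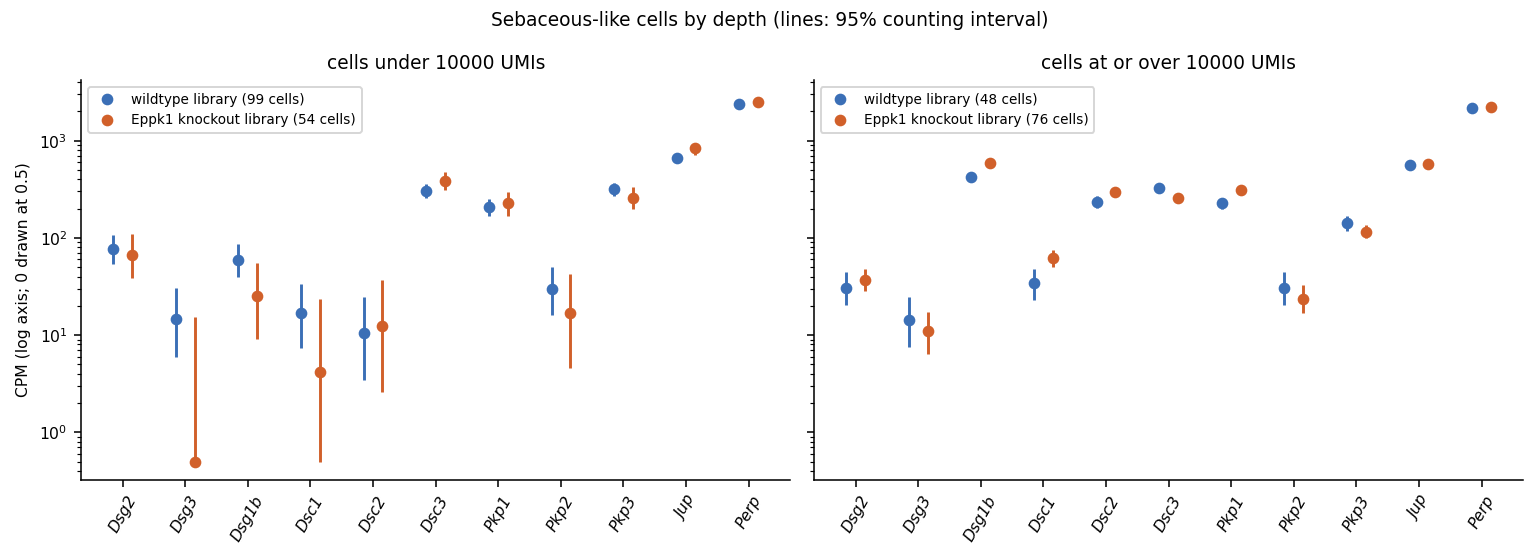
Desmosome genes in sebaceous-like cells under 10000 UMIs (left) and at or over it (right), in CPM on a log axis with 0 drawn at the foot; blue is the wildtype and orange the Eppk1-/- library, with 95% counting intervals. Dsc2 lies at 10.6 and 12.5 CPM on the left and at 236 and 295 on the right, and Dsg1b and Dsc1 are also higher on the right, while Pkp3 is lower.

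Genes whose levels across the same 32 points were most like each member's are given as descriptions, from 8263 genes. Dsg2 was closest to Itga6, the basal integrin (r = 0.900), and Krt14, and Dsg3 to the basal keratins Krt5 (0.953) and Krt15 (0.949). Dsc1 was closest to Klk5, a protease of the upper epidermis (0.938), and Orm1, and Dsc2 to Tmem184a and Muc15. Dsc3 was closest to Sdc1 (0.958) and Fam83b, Pkp1 to Lad1 (0.938) and Fam83g, Pkp3 to Ppp1r13l and Tmem79, Jup to Ripk4 (0.974) and Epha4, and Perp to Crb3 (0.973) and Lad1. Pkp2 had the least similar neighbours, Mgat4a at 0.756 and Prxl2a at 0.738.

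Outside the epithelium most members lay in the range set by other keratinocyte genes. For 11 keratinocyte genes, fibroblast-like cells held 3.05% to 7.57% of the keratinocyte level in the wildtype and 2.78% to 5.7% in the Eppk1-/- library, and 7 of 10 and 5 of 9 members lay inside those ranges. Summed over the members, fibroblast-like cells had 719 and 546 CPM against 12845 and 12405 in keratinocytes. Langerhans-like and dendritic-like cells, which live among keratinocytes, held 21% to 50.5% and 7.83% to 31.5% of the reference levels, with 1 and 0 members above. The one above was Pkp2, at 13.9 CPM in the wildtype library, and in the Eppk1-/- library (19.1 CPM) it had too few keratinocyte UMIs to be set against the references. Jup in macrophage-like cells was 353 and 331 CPM, 12.2% and 11.3% of the keratinocyte level, where the highest reference genes reached 11.8% and 7.19%. In the Eppk1-/- library alone Jup was also above the highest reference in fibroblast-like cells (5.82% beside 5.7%) and T-like and NK-like cells (21.9% beside 20%). The same held there for vascular-like cells (23.2% beside 18.5%) and skeletal muscle-like cells (5.63% beside 3.15%, on 7 UMIs). Jup was not alone in this. Dsg2 (7%) and Dsc2 (7.31%, on 19 UMIs) were further above in Eppk1-/- fibroblast-like cells, and Dsg3 (7.77%) was above in wildtype ones. In wildtype vascular-like cells Dsg2 (76.4%, on 14 UMIs) and Dsg3 (60.7%) were above the highest reference, at 46.6%. Both were also above it in wildtype melanocyte-like cells, on 4 and 13 UMIs.

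Between the genotypes the keratinocyte desmosome set was close in level. The 10 genes together made 1.28% and 1.24% of keratinocyte UMIs, a log2 ratio of Eppk1-/- over wildtype of -0.05 [-0.06, -0.04]. With a size of log2 0.5, 0 of 10 members differed, where 7.42% of all genes did. The single ratios ran from -0.34 [-0.92, 0.20] for Pkp2 to 0.22 [0.13, 0.31] for Dsg2, and their median was -0.07 beside -0.02 for all genes. The other desmosome genes and the adherens genes also had 0 past that size, of 7 and 10 counted.

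By class, 0 of 9 members differed in basal-like cells and 0 of 9 in spinous-like cells, where 7.49% and 6.83% of all genes did. In granular-like cells (9.10% of genes) and upper follicle-like cells (8.06%) 1 of 9 did in each, Dsg3. It was 20.2 and 12.9 CPM in granular-like cells, log2 -0.64 [-1.08, -0.23], and 80.7 and 51.4 in upper follicle-like cells, -0.65 [-0.94, -0.37]. The granular values were close to those of fibroblast-like cells (20.9 and 13.1 CPM, -0.68), and the granular difference lay in the loricrin-low group (18 and 7.75 CPM) and not in the loricrin-high group (21.4 and 22.5 CPM). In basal-like cells Dsg3 was 468 and 445 CPM. Bulge-like (11.7% of genes) and outer sheath-like cells (13.5%) had 0 of 7 members past the size.

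In the latest cells, 50 and 35 cells, 4 of the 5 counted members were higher in the Eppk1-/- library, where 20.9% of all genes were past the size. Dsc1 was higher by 0.93 [0.31, 1.57], Pkp3 by 0.54 [0.09, 0.99], Jup by 0.53 [0.21, 0.85] and Perp by 0.50 [0.27, 0.74], whereas Pkp1, with the most UMIs there, was at 0.04 [-0.17, 0.24]. The members' sum was 1183 and 1493 CPM. Of the adherens genes 2 of 4 counted were higher as well, with a median of 0.43. Of the other desmosome genes 0 of 4 were past the size, with a median of 0.19, beside 0.08 over all genes. Trimmed-mean scaling factors of the class were 0.18 and 0.21, which would lower each of these ratios. Those of Pkp3, Jup and Perp would then fall short of the size, and that of Dsc1 would not. Calls over all genes under that scaling were not made. The comparison of the latest cells was added after the other classes had been seen.

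Sebaceous-like cells had 3 of 9 members past the size, where 29.9% of all genes were. Dsc2 was higher in the Eppk1-/- library by 0.70 [0.47, 0.94], Dsc1 by 0.92, and Pkp3 lower at -0.57 [-0.82, -0.32]. The median over all genes was -0.16. Trimmed-mean scaling factors of the class were 1.05 and 0.85, which would raise each of these ratios. That of Pkp3 would then fall short of the size. Calls over all genes under that scaling were not made. The sebaceous-like cells of the libraries differed in depth, with medians of 6116 and 12762 UMIs. Of the other desmosome genes 3 of 7 were also higher (Dsg1a, Dsg1b and Cdsn, by 1.01, 0.79 and 0.61), and of the adherens genes 4 of 10 were lower. Among cells at or over 10000 UMIs the differences were 0.32 [0.09, 0.57] for Dsc2, 0.83 [0.25, 1.48] for Dsc1 and -0.28 [-0.61, 0.06] for Pkp3.

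In fibroblast-like cells 3 of 8 members were lower, Dsc1 at -0.91, Dsg3 at -0.68 and Pkp3 at -0.55, with 15.5% of all genes past the size. The 11 reference genes moved with them, from a median of 5.57% to 4.21% of the keratinocyte level, and their part in the difference was not tested. Of the other desmosome genes Cdsn was past the size in spinous-like cells (13.3 and 5.81 CPM, -1.18) and outer sheath-like cells (51.5 and 118 CPM, 1.19), and Dsg1a and Dsg1b were higher in bulge-like cells, by 0.79 and 0.97, where Cdsn was lower at -0.80.

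**Figure D5:**
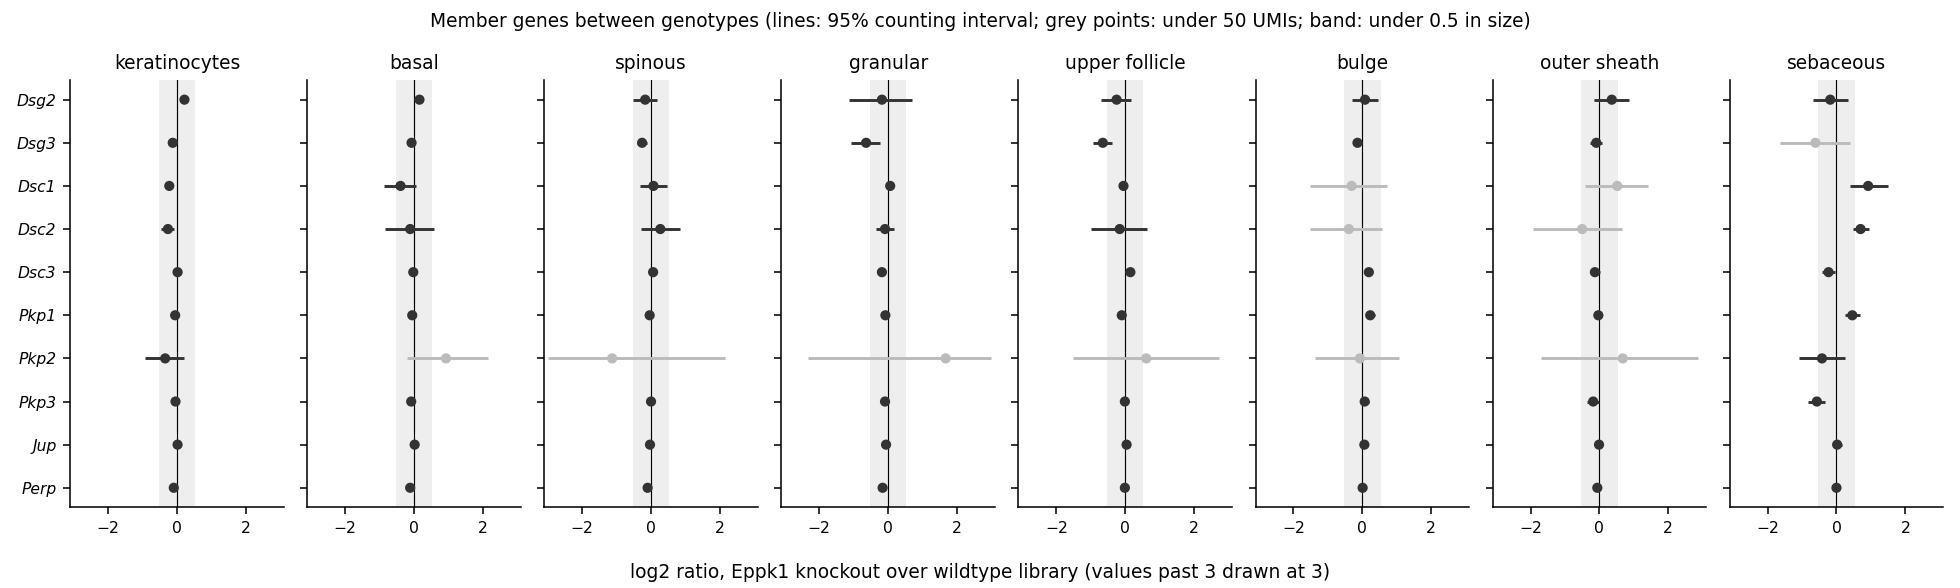
Log2 ratio of the Eppk1-/- over the wildtype library for the 10 genes in keratinocytes and 7 classes, with 95% counting intervals; the grey band marks sizes under 0.5 and grey points rest on under 50 UMIs. In keratinocytes all 10 points lie within the band, from -0.34 to 0.22, Dsg3 lies left of it in granular-like and upper follicle-like cells, and Dsc1 and Dsc2 lie right of it in sebaceous-like cells.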

How the data were processed

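Dorsal skin of 1 wildtype and 1 Eppk1-/- mouse was profiled with the 10x Flex probe assay, which counts ligated probe pairs per cell. The authors deposited UMI counts per gene and cell, made with Cell Ranger on mm10 per the labels; 13 mitochondrial genes were left out of sums. Barcodes outside 200 to 45000 UMIs or 100 to 7500 genes, or with more than 10% of UMIs from mitochondria, were dropped (304 and 194). Seurat 5.3.0 (R 4.3.3) log-normalised the counts, integrated the libraries by reciprocal PCA over 2000 variable features without the desmosome and adherens genes, and clustered at resolution 0.5, all cells first and epithelial cells again. A cluster was named from a marker list with at least 3 markers in 25% of its cells, a scoring rule set after clusters were seen; clusters over 95% from 1 library and others without a name (237 and 341 cells) were not used. Macrophage-like cells were not compared between genotypes, since 1 of their clusters was led by a marker of another class. The upper follicle-like cluster, with 2 markers of another class among its leading genes, was compared all the same.

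Counts were summed per class and library and divided by the class total (NumPy 2.4.6, SciPy 1.17.1, pandas 2.3.3). Ratios had 0.5 UMI added to each sum, with exact binomial intervals. Changes in the ratio of 2 genes between classes have normal intervals on the log scale instead. Shares have exact Clopper-Pearson and levels exact Poisson intervals. All cover counting error only. Detection was scored with every cell thinned to 2000 UMIs and shallower cells left out. Scrublet (Scanpy 1.11.5) called 1 wildtype cell (0.0113%) and 220 Eppk1-/- cells, so its calls were not used and no doublets were removed. Ratios were tested on simulated counts. Named were the 10 genes, up to 4 of each other list with the largest or smallest differences in a comparison, and the 2 genes most like each member. Members and lists were chosen with earlier results of these data known.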

Additional observations from a re-analysis of the deposited data

Results flagged for a closer look

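Pkp3, Jup and Perp were flagged because their ratio of Eppk1-/- over wildtype had opposite signs in different classes, each with a counting interval apart from 0. The ratio also had to reach log2 0.5 in size in at least 1 class. Smaller ratios of opposite sign, such as those of Dsc3, were not flagged. With 1 library per genotype the difference between classes was not tested. Pkp3 was at 0.54 in the latest cells, -0.57 in sebaceous-like cells, -0.08 in basal-like cells and -0.09 in granular-like cells. Jup was at 0.53 in the latest and -0.06 in granular-like cells. Perp was at 0.50 in the latest cells, -0.11 in basal-like, -0.10 in spinous-like and -0.16 in granular-like cells. The latest cells numbered 50 and 35, and their genotype values were computed after the other classes had been seen. Those values were not rescaled by trimmed means. The class factors would take the latest ratios of Pkp3, Jup and Perp short of log2 0.5. The factors of the sebaceous-like class would do the same to its Pkp3 ratio.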

How the results depend on the processing

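No paired analysis was possible because each genotype has 1 library. The summed keratinocyte ratio of the members (-0.05) was -0.03 under TMM scaling (edgeR 4.0.16), -0.02 as a mean over cells, -0.02 with cells thinned to 2000 UMIs, -0.06 with wildtype class shares and -0.08 with sebaceous-like cells included, and the count of members past log2 0.5 was 1 as a mean over cells (Pkp2). Members past log2 1 against basal-like cells numbered 4 in the bulge-like class with no UMI minimum, and 5 in the sebaceous-like class with thinned cells. At clustering resolution 1 the Dsc1 to Dsc3 granular difference was 8.25 and 9.24, and Dsc3 was also called lower in granular-like than in basal-like cells. The spinous-like, granular-like and upper follicle-like classes held other cells at that resolution, as given above. Members past log2 1 between upper follicle-like and spinous-like cells were then Dsg2, Dsc1 and Dsc2 in place of Dsc1 and Dsg3. Directions turned for Dsg3 between those classes in the wildtype library, to 0.36 at resolution 1 and 0.04 without integration, and for Pkp1 in latest against granular-like cells under TMM, 0.15 and 0.02, where the all-gene median was -0.71 and -0.85. The Dsg3 difference was short of log2 1 in 1 library with thinned cells and with at least 1000 UMIs and 500 genes per cell. The cause was not tested. Without integration no cluster was named granular-like, so granular results have no value there. Leaving out granular-like cells with immune markers (25 and 17) and upper follicle-like cells with inner sheath markers (0 and 1), chosen after seeing the data, gave 5.94 and 6.51 for Dsc1 over Dsc3. With 1 library per genotype, depth bounds only the counting error.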
